A study of Danio rerio with 4 samples.

Results

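The short arm of zebrafish chromosome 4 was described by its regions of 5-hydroxymethylcytosine (5hmC) in the embryonic heart. Its members were all peaks on chromosome 4 whose midpoint lay below 28 Mb of the danRer7 build. There were 4169 of 145501 peaks in capture 1 and 4161 of 145893 in capture 2. The peaks came from 2 capture libraries made from hearts that were dissected at 48 hours post fertilisation from untreated wild-type Danio rerio. The strain background is given as AB, and the embryos came from crosses of AB with TU fish. Each library was a pool of at least 40 hearts, so the cell types of the organ were mixed, and nothing in the labels says that the pools came from separate clutches. The 2 matching input libraries were not analysed here.

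5hmC is made when TET enzymes oxidise 5-methylcytosine, and in vertebrate genomes it is known from gene bodies and active enhancers. It can be a step on the way to loss of methylation or a lasting mark. Chromosome 4 of the zebrafish is unusual in its 2 arms: the long arm is late replicating, heterochromatic and rich in repeats and in large gene families, whereas the short arm resembles the other chromosomes.

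The unit of measurement was the peak, with a width in base pairs and a score from the authors' peak caller. A score ranks peaks within a list; its scale is not stated, and the reads behind a peak are unknown. Merging the overlapping peaks of both captures and keeping what both contributed to gave 3255 consensus regions on the arm out of 110315 in the series. Both captures belong to 1 condition and read counts were not used here, so no test between groups was possible. Places in an order of chromosomes, percentages and intervals are descriptions. Wilson intervals (95%) assume independent peaks and reflect counting error alone.

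The arm carried many 5hmC regions for its length. It made up 2.06% of the chromosome spans and held 2.95% of the consensus regions. Capture 1 had 148.9 peaks per Mb and capture 2 had 148.6, with 116.3 consensus regions per Mb. The first 28 Mb of each of the other 24 chromosomes, taken as stretches of equal length, held 87.6 to 129.3 peaks per Mb in capture 1 and 89.4 to 127.9 in capture 2, and 64.8 to 99.2 consensus regions per Mb. The arm therefore came first of 25 in each list and in the consensus. It had 1.39 times the median of the other 24 stretches in peaks of capture 1, 1.37 times in peaks of capture 2 and 1.43 times in consensus regions. Chromosome 7 was the sparsest of these stretches, and chromosome 23 came next to the arm in consensus regions.

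By covered length the arm also came first of 25, while the order of the other stretches differed. Peaks covered 20.2% of the arm in capture 1 and 21.4% in capture 2, against 11.2 to 17.9% and 12.3 to 19.5% in the other stretches. Consensus regions covered 19.4% of the arm, against a median of 13.5% elsewhere.

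Stretches that did not begin at a chromosome end could reach the arm's density. Of 634 overlapping stretches of 28 Mb on the other chromosomes, 4 held more consensus regions per Mb than the arm, and all 4 were on chromosome 7. The densest ran from 21 to 49 Mb of chromosome 7 with 119.7 per Mb. No stretch exceeded the arm in peaks of capture 1, and 2 did in capture 2. For the first 24 Mb of chromosome 4 alone the density was 127.6 consensus regions per Mb. None of 730 stretches of that length elsewhere reached it, and the densest had 123.1. The cut at 24 Mb was made with the densities of chromosome 4 known and leaves out the arm's sparsest windows. The comparison at 24 Mb is therefore a description.

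Differences between windows were smaller on the arm, relative to its mean, than in each of the other 24 first stretches. Over its 28 windows of 1 Mb the consensus regions numbered 19 at the lowest, 122 at the median and 203 at the highest. The median of 1306 windows on other chromosomes was 78, with quartiles of 53 and 107. On the arm 24 of 28 windows lay above that median, 18 lay above the upper quartile and 2 lay below the lower quartile. The coefficient of variation between windows was 35.5% on the arm, against 39.6 to 64.7% in the other 24 stretches.

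**Figure D1:**
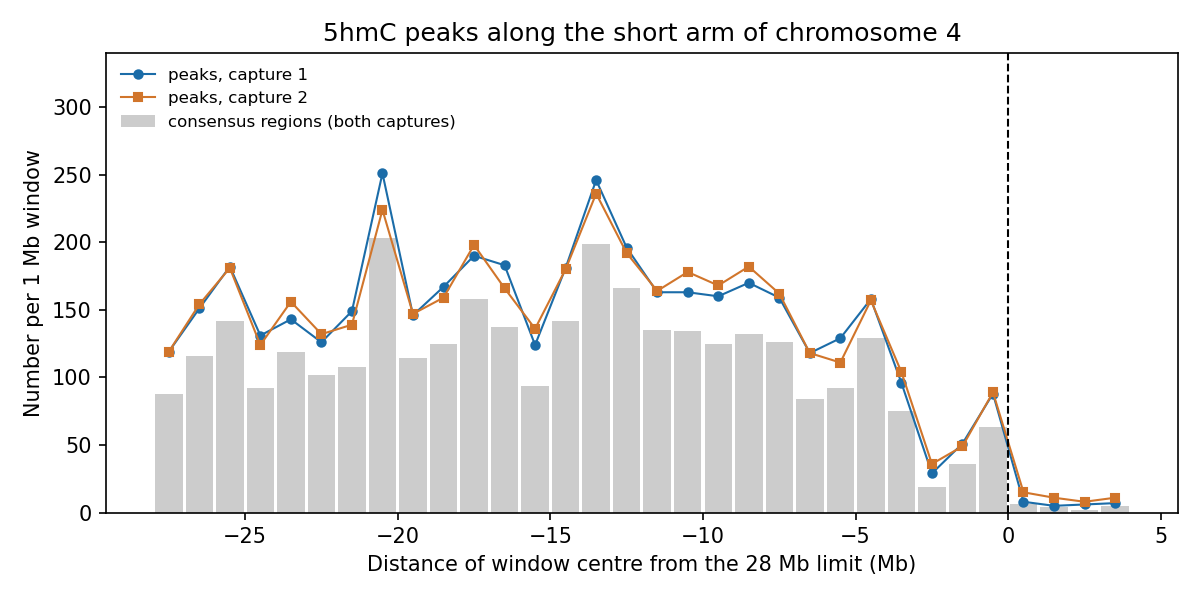
Peaks per 1 Mb window in each capture (points and lines) and consensus regions (grey bars) against the distance of the window centre from the 28 Mb limit (dashed line). Consensus regions range from 19 to 203 per window on the arm; the last 4 windows before the limit hold 75, 19, 36 and 63.

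The window from 7 to 8 Mb was the densest of the arm, with 203 consensus regions that covered 41.0% of it. It held 251 peaks in capture 1 and 224 in capture 2. In each capture it also had the highest median score of the arm's windows, 157.8 in capture 1 and 183.6 in capture 2. Only 8 windows on other chromosomes held as many consensus regions.

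Most of the next dense windows lay between 10 and 16 Mb. The window from 14 to 15 Mb had 199 consensus regions and its neighbour from 15 to 16 Mb had 166. The window from 10 to 11 Mb had 158, and those from 2 to 3 Mb and from 13 to 14 Mb had 142 each. The dense windows from 13 to 16 Mb adjoined each other without a break. Less dense windows lay beside the others: 12 to 13 Mb had 94 and 3 to 4 Mb had 92, both above the median elsewhere.

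The 5 windows with the fewest consensus regions all belonged to the last 7 Mb. They were 25 to 26 Mb with 19, 26 to 27 Mb with 36, 27 to 28 Mb with 63, 24 to 25 Mb with 75 and 21 to 22 Mb with 84. The first 4 of these were below the median of 78 on other chromosomes and the last was above it.

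In blocks of 7 Mb the middle of the arm was the richest and its last block the poorest. Consensus regions per Mb were 109.6 in the block from 0 to 7 Mb, 139.0 from 7 to 14 Mb, 145.3 from 14 to 21 Mb and 71.1 from 21 to 28 Mb. The last block had 95.6 ± 44.7 peaks per window in capture 1 and 94.9 ± 41.5 in capture 2 (SD over 7 windows), against 179.6 ± 31.96 and 183.1 ± 25.6 in the block before it. The last 7 Mb thus held 0.542 times the density of the first 21 Mb. In the other 24 stretches this ratio ran from 0.597 on chromosome 25 to 1.91 on chromosome 15, with a median of 1.29, so the arm came last of 25. The limit of 28 Mb was drawn with the densities of chromosome 4 known, and the other stretches merely end at the same coordinate. The arm's place by this ratio is therefore a description.

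At a finer scale the decline was not gradual. Bins of 250 kb showed a fall, a partial return and a second fall. The bin from 24 to 24.25 Mb had 43 peaks in capture 1 and 46 in capture 2, and the next had 14 and 13. After 23 and 24 in the bin from 24.75 to 25 Mb, counts ran down to 1 and 0 in the bin from 25.75 to 26 Mb. Over the whole trough from 24.25 to 26.75 Mb there were 42.0 peaks per Mb in capture 1 and 48.0 in capture 2, and 28.4 consensus regions per Mb.

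Between 26.75 and 27.75 Mb the peaks returned. That 1 Mb held 114 peaks in capture 1 and 110 in capture 2, and 84 consensus regions, against a median of 78 in windows of other chromosomes. Its edges were placed around the richer bins, whereas the windows elsewhere lie on a fixed grid. On that grid, 26 to 27 Mb had 36 consensus regions and 27 to 28 Mb had 63, both below 78. The median score there was 99.1 in capture 1 and 111.4 in capture 2, against 71.9 and 87.0 in the trough before it.

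The second fall came before the limit. The bin from 27.5 to 27.75 Mb had 31 peaks in capture 1 and 36 in capture 2, whereas the last bin before 28 Mb had 2 in each. Beyond the limit, bins held 0 to 5 peaks of capture 1 and 0 to 6 of capture 2 up to 32 Mb. The dense part of the arm thus ended before 27.75 Mb, which is only the edge of a bin. Its last consensus region ended at 27644888, and the next one began at 27777807. The limit of 28 Mb, which was drawn with these densities known, lay past the end of the dense part.

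**Figure D2:**
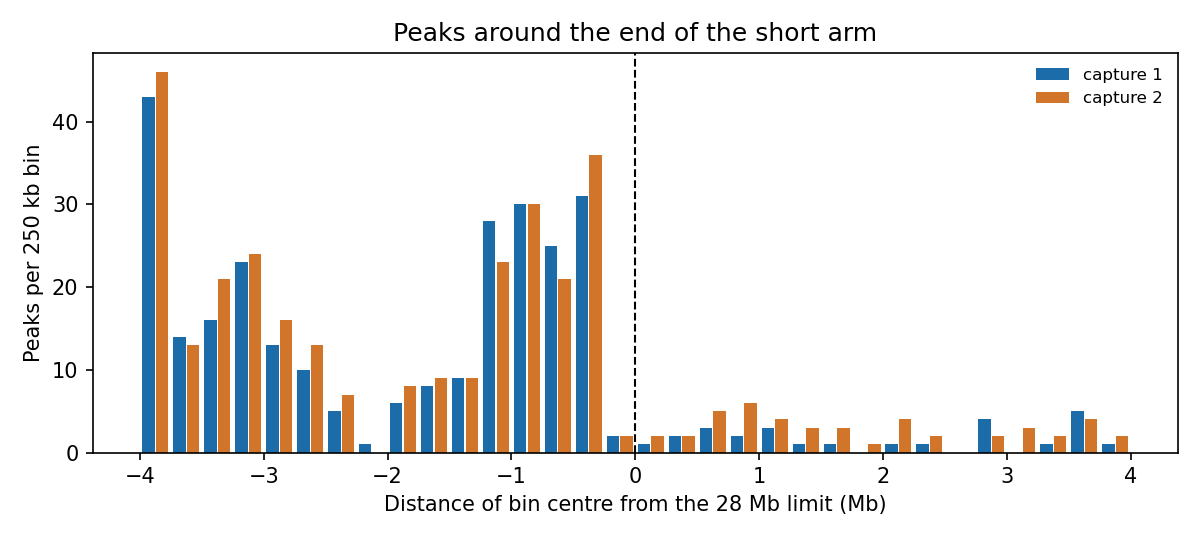
Peaks per 250 kb bin in capture 1 and capture 2 from 4 Mb before to 4 Mb after the 28 Mb limit (dashed line). Both captures show the trough, the return to 21 to 36 peaks per bin in the 4 bins from 26.75 to 27.75 Mb, and 2 peaks each in the last bin before the limit.

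The consensus regions next to the limit had very unequal scores. The last 3 inside were 27639904 to 27641045 with scores of 375.4 in capture 1 and 201.0 in capture 2, 27641644 to 27644888 with 1041 and 1050, and 27777807 to 27779502 with 61.5 and 87.7. The second of these ranked 308 in the series by mean score rank. The first 3 outside were 28027699 to 28028745 with 186.8 and 208.1, 28467148 to 28468984 with 59.8 and 55.5, and 28482951 to 28484177 with 70.2 and 56.4. No consensus region crossed the limit.

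The limit marked the steepest change in density of all boundaries between windows that could be scored. The 5 windows before it averaged 64.4 consensus regions and the 5 after it 3.8, a ratio of 16.9. Among 1119 boundaries the next were 29 and 30 Mb of chromosome 4, which share windows with it. On other chromosomes the largest step was at 9 Mb of chromosome 14, with 102.4 before and 19.0 after, a ratio of 5.39. The fall at 24 Mb of chromosome 4, 112.6 before and 39.8 after, ranked 24. The limit was chosen for this step, so its size is a description.

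Scores on the arm were somewhat higher than elsewhere. The median was 108.8 on the arm in capture 1 (quartiles 73.2 and 187.1), against 103.7 on the other 24 chromosomes. In capture 2 it was 118.8 on the arm (quartiles 77.3 and 200.9), against 108.1. Of the 25 first stretches the arm took place 5 in capture 1 and place 1 in capture 2, so its place depended on the capture.

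Strong peaks were more frequent on the arm than in the whole lists. In capture 1, 527 arm peaks (12.6%, Wilson interval 11.7 to 13.7%) were in the top score decile of the list, which holds 10.0% of all peaks by construction. In capture 2, 473 arm peaks were (11.4%, 10.4 to 12.4%), also against 10.0%. The arm came second of 25 stretches by this percentage in capture 1 and seventh in capture 2. Peaks above the median score made up 53.0% of arm peaks in capture 1 and 55.2% in capture 2, against 50.0% in each list.

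Along the arm, scores followed density. Across the 28 windows, Spearman's rho between the number of consensus regions and the median score was 0.71 in capture 1 and 0.72 in capture 2. The windows share libraries and borders, so this is a description. Consensus regions also need a peak in both captures, and sharing rises with score. Windows with higher scores thus gain consensus regions by the way these are counted, and the size of this part was not tested. In the block from 7 to 14 Mb, 15.5% of peaks in capture 1 and 13.9% in capture 2 were in the top decile. In the last block 7.77% and 6.93% were. In the trough from 24.25 to 26.75 Mb only 1 of 105 peaks in capture 1 and 3 of 120 in capture 2 were in the top decile.

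Widths did not stand out. The median peak width was 1154 bp on the arm in capture 1 (quartiles 881 and 1581 bp), against 1170 bp on the other 24 chromosomes, and 1224 bp on the arm in capture 2 (quartiles 933 and 1665 bp), against 1236 bp. Consensus regions had a median width of 1395 bp on the arm and 1438 bp on the other chromosomes. The arm's median consensus width came 18th of the 25 first stretches. In both captures wider peaks scored higher, with Spearman's rho across arm peaks of 0.48 in each.

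Wide regions were present all the same. Of the arm's consensus regions 53 (1.63%, Wilson interval 1.25 to 2.12%) were wider than 5 kb, against 1.24% in the series, and 3 of the other 24 stretches had a higher percentage. Of the 53, 4 lay beyond 21 Mb. Of the 73 regions wider than 10 kb in the series, 4 were on the arm, which held 2.95% of all consensus regions.

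**Figure D3:**
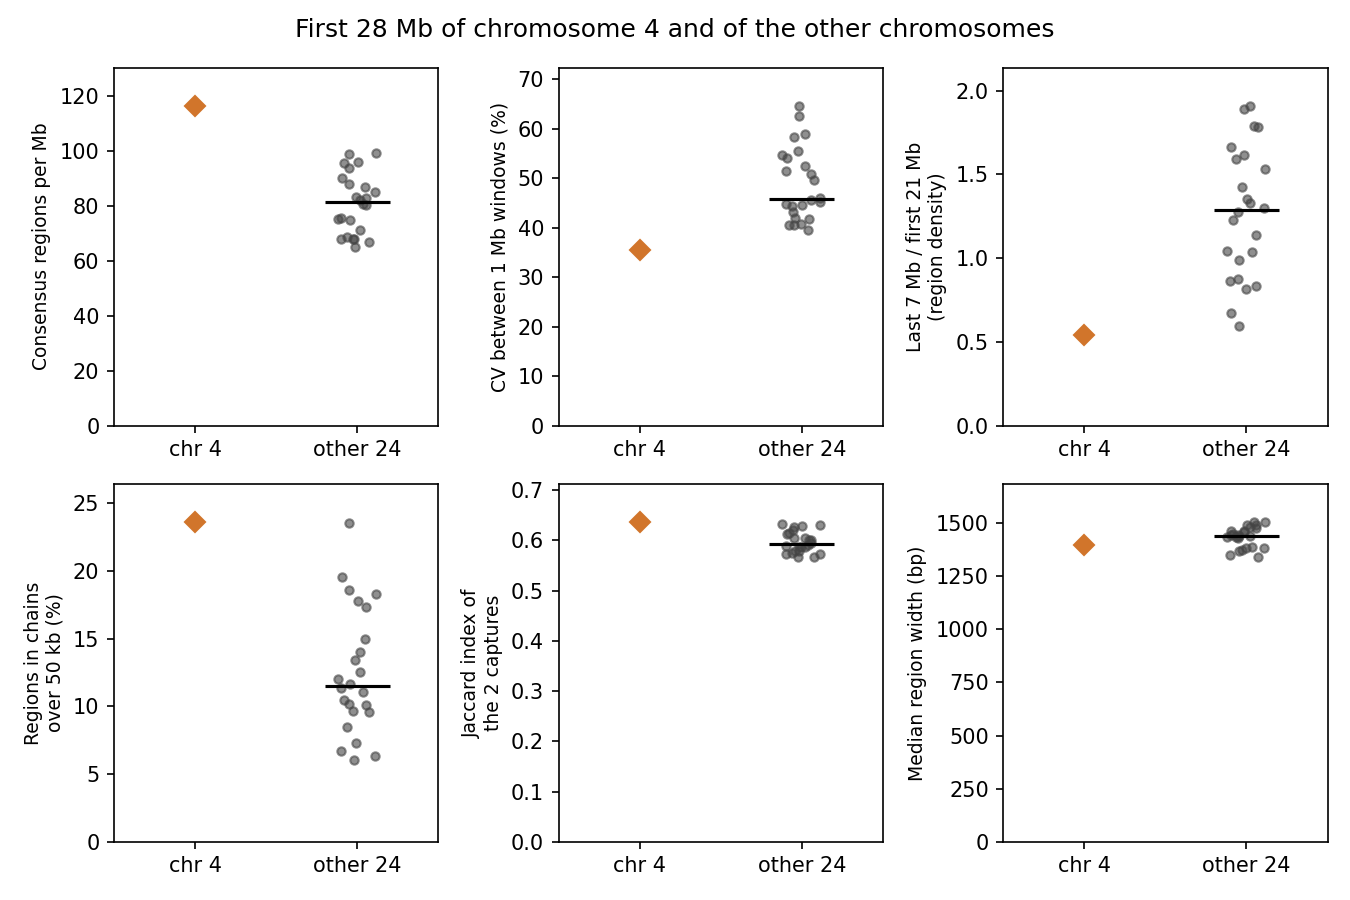
Measures of 5hmC regions in the first 28 Mb of chromosome 4 (diamond) and of the other 24 chromosomes (circles, with their median as a line). The arm has the highest consensus density and Jaccard index and the lowest coefficient of variation and last-to-first ratio; its chain percentage of 23.6% is level with the highest of the others at 23.5%, and its median region width of 1395 bp lies among the others.

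The 10 strongest regions of the arm lay between 4424523 and 21406234. They were chosen by the mean of their score ranks in the lists, which makes high ranks in both captures a matter of the choice. First was 16116401 to 16122180 (5780 bp), with scores of 1891 in capture 1 and 2181 in capture 2, ranked 15 in the series. It was followed by 21397471 to 21406234 (8764 bp) with 2860 and 1717, which was the highest score of any arm peak in capture 1. Place 3 was held by 15599120 to 15609540 with 1654 and 1945.

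The next 4 ranked between 57 and 102 in the series. The region 17729672 to 17734949 scored 1520 in capture 1 and 1831 in capture 2. The region 4424523 to 4434319 scored 1417 and 1657. The region 13426721 to 13434619 scored 1200 and 2434, and its peak of capture 2 had the highest score of any arm peak in that capture. The region 5887918 to 5897636 scored 1723 and 1302.

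The last 3 of the 10 were 5841930 to 5852891 with 1065 and 1260, 7662114 to 7680324 with 985 and 1367, and 16098444 to 16103070 with 1032 and 1168. Of these 10 regions 9 were wider than 5 kb, and 8 lay in a long chain of regions. The regions at 16116401 and 16098444 shared a chain, as did those at 5887918 and 5841930. Of the 100 regions with the highest mean rank in the series, 6 were on the arm, and of the highest 1000, 38 were. The arm held 2.95% of all consensus regions.

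The 5 widest regions overlapped with this set in 4 cases. The widest, 7662114 to 7680324, spanned 18211 bp and ranked 4 in the series by width. Capture 1 divided it into 4 peaks with scores of 186.5, 684.7, 984.6 and 866.1, and capture 2 into 2 with 771.5 and 1367. The regions at 5841930 to 5852891 (10962 bp), 15599120 to 15609540 (10421 bp) and 4424523 to 4434319 (9797 bp) were called as 1 to 3 peaks in each capture.

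Among the 5 widest regions, the remaining one was where the scores of the captures differed most. The region 7317344 to 7334376 (17033 bp) was called as 4 peaks in capture 1, with scores of 1015, 451.5, 211.4 and 2510 from left to right. Capture 2 called it as 1 peak with a score of 97.9, at the 44.2 percentile of its list. Its outer edges were at 7317390 and 7334190 in capture 1 and at 7317344 and 7334376 in capture 2. The 2510 peak, 7326186 to 7334190, was at the 99.997 percentile of capture 1.

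Regions of the arm gathered in chains. With consensus regions linked across gaps of up to 5 kb, 27 chains on the arm were longer than 50 kb, of 671 in the series. They held 768 of the arm's regions, or 23.6% (Wilson interval 22.2 to 25.1%), against 13.3% in the series. The other 24 first stretches had 7 to 26 such chains and 6.06 to 23.5% of their regions in them, with chromosome 24 level with the arm. When peaks at or below the list median in score were left out, the percentage was 9.16% on the arm, against up to 10.5% elsewhere, and the arm took place 5 of 25. The arm's regions also lay closer together: the median gap between neighbours was 2339 bp on the arm, against 2720 to 4825 bp in the other stretches. Chain length rises with density by construction, and how far the arm's density accounts for its chains was not tested.

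The longest chain of the arm ran from 7573937 to 7826403 (252.5 kb). It had 71 regions that covered 65.8% of it, and it ranked second in the series by length. The widest region of the arm lies inside it. The next were 2635714 to 2800408 (164.7 kb, 56 regions, 53.2% covered), 22911054 to 23053018 (142.0 kb, 46 regions, 61.3% covered), 16046061 to 16176699 (130.6 kb, 37 regions, 72.4% covered) and 5799728 to 5924830 (125.1 kb, 31 regions, 67.4% covered). The fourth contains the strongest region of the arm. Chains longer than 100 kb numbered 11 on the arm, of 111 in the series, while the arm held 2.95% of all consensus regions. Their number also rises with density by construction.

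The long chains were not confined to the densest windows, since 17 of 28 windows held the midpoint of at least 1. The window from 13 to 14 Mb held 4 and that from 7 to 8 Mb held 3. Beyond 21 Mb there was 1, and beyond 24 Mb none. Regions inside long chains were stronger and wider than the arm's other regions: their median of the mean score percentile was 76.9 inside chains and 56.1 outside, and their median width was 1599 bp inside and 1333 bp outside. On the other chromosomes the same values were 76.7 inside and 54.9 outside, and 1718 bp inside and 1405 bp outside. The difference was thus present on the arm and elsewhere. Wide regions add to the length of a chain, and wider peaks scored higher. Part of the difference therefore follows from how long chains are chosen, and the size of this part was not tested.

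Isolated regions were few. On the arm 62 consensus regions (1.90%, Wilson interval 1.49 to 2.43%) were more than 20 kb from both neighbours, against 4.37% in the series. This percentage falls as density rises, and how far the arm's density accounts for it was not tested. The longest stretches of the arm without a peak in either capture followed each other in the trough: 25673428 to 25863167 (189.7 kb), 25864488 to 26036220 (171.7 kb) and 26113571 to 26220745 (107.2 kb). A single peak of capture 1 separated the first from the second. Outside the trough the longest between arm peaks were 9941563 to 10038746 (97.2 kb) and 2064740 to 2146451 (81.7 kb). The stretch from the end of the last arm peak, at 27837613 in capture 2, to the limit was longer than both. It is not counted here because no arm peak follows it. Of 23 peak-free stretches over 50 kb between arm peaks, 12 lay before 24 Mb.

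The 2 captures marked largely the same places on the arm. In capture 1, 3390 arm peaks (81.3%, Wilson interval 80.1 to 82.5%) had a partner in capture 2 (an overlap of at least 1 bp), against 79.0% in the whole list. In capture 2, 3344 arm peaks (80.4%, 79.1 to 81.5%) had one in capture 1, against 77.4%. Among the 25 first stretches the arm took places 3 and 2 by these percentages. The captures shared 4.53 Mb of the 7.11 Mb covered by at least 1 of them, a Jaccard index of 0.636, against 0.567 to 0.632 in the other stretches. Overlap by chance rises with density, and its part in the arm's values was not tested.

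Sharing rose with score on the arm as it did elsewhere. In the lowest score decile 52.0% of arm peaks in capture 1 and 44.7% in capture 2 were shared, against 49.0% and 45.2% on the other chromosomes. In the fifth decile the arm had 79.4% and 77.4%, against 78.8% and 76.7%. In the top decile all 527 arm peaks of capture 1 and all 473 of capture 2 were shared, against 99.8% and 99.9% on the other chromosomes. With 0 unshared, shares of up to 0.569% and 0.634% are allowed. Shared arm peaks had a median score of 130.6 in capture 1 and 140.3 in capture 2, and the 779 and 817 unshared ones had 68.2 and 70.9. On the other chromosomes shared peaks had 122.3 and 130.0, and unshared ones had 67.7 and 69.3.

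Across windows, sharing was lowest in the window with the fewest consensus regions. Those regions are built from shared peaks alone, so low sharing lowers their number by construction. The percentage of shared peaks ran from 65.5% to 88.1% in capture 1 and from 52.8% to 92.9% in capture 2. The window from 25 to 26 Mb had the lowest value in each, from 29 peaks in capture 1 and 36 in capture 2. The trough as a whole had 68.6% shared in capture 1 and 60.0% in capture 2.

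**Figure D4:**
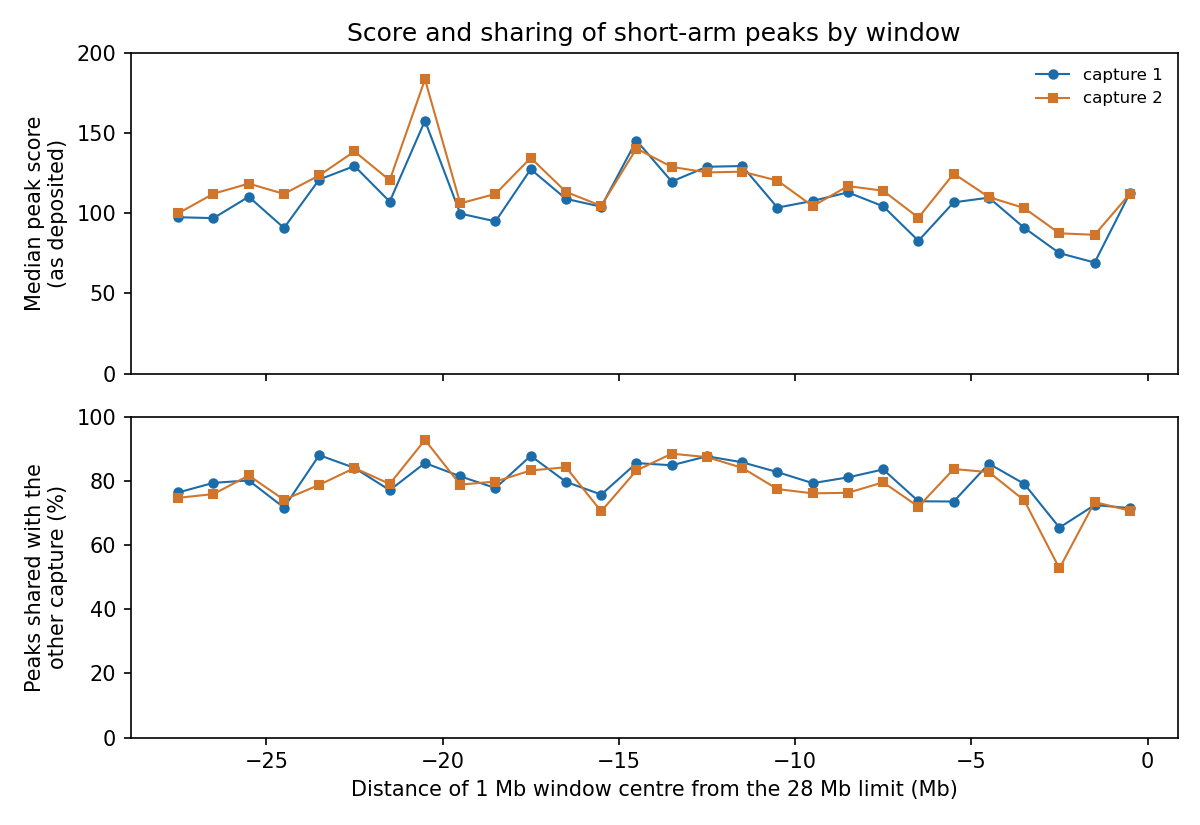
Median peak score as deposited (top) and percentage of peaks shared with the other capture (bottom) per 1 Mb window of the arm, against the distance from the 28 Mb limit. The highest median scores, 157.8 and 183.6, are in the window from 7 to 8 Mb, and the lowest sharing, 65.5% and 52.8%, is in the window from 25 to 26 Mb.

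The captures were close in their numbers per window. In 25 of 28 windows the peak numbers differed by less than 10% of their mean, and the largest difference was 21.5%. Capture 1 had more peaks in 12 windows, capture 2 in 14, and they were equal in 2. Spearman's rho of the peak numbers over the windows was 0.97, that of the median scores 0.85 and that of the median widths 0.86.

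Single scores were less alike than numbers. For the 3081 arm pairs in which neither peak met a further one, the scores had a Spearman's rho of 0.67, against 0.60 to 0.69 in the other stretches, and rho of the widths was 0.84. The score in capture 2 was at the median 1.07 times that in capture 1, with quartiles of 0.790 and 1.43. Scores were more than 3-fold apart in 66 pairs (2.14%, Wilson interval 1.69 to 2.72%), against 2.13% in the series. Of these, 35 were higher in capture 2 and 31 in capture 1, or 1.14% and 1.01% of the arm's pairs, against 1.37% and 0.760% in the series. The most unequal pair, 10741187 to 10744044, scored 431.8 in capture 2 and 73.0 in capture 1.

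**Figure D5:**
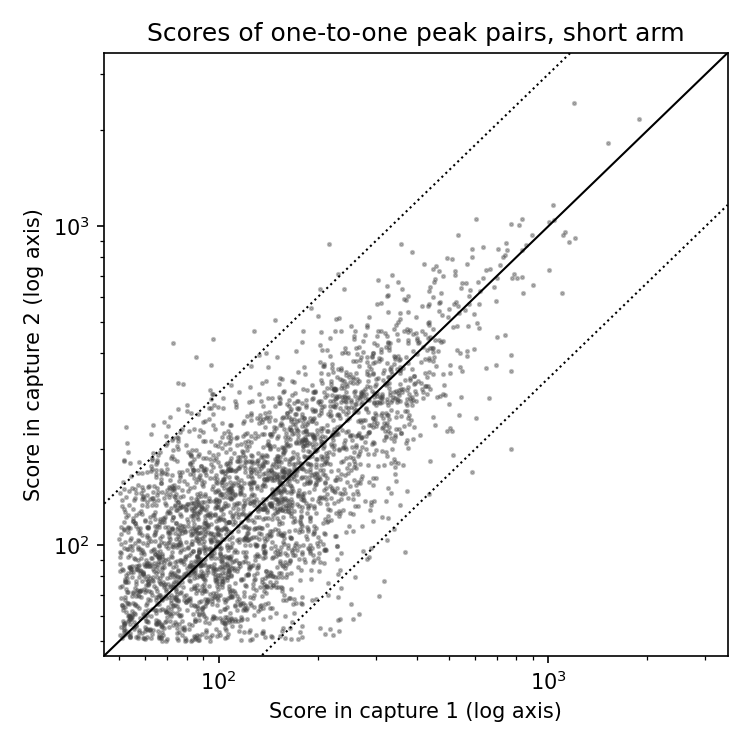
Score in capture 2 against score in capture 1 on log axes for the 3081 one-to-one pairs of arm peaks; the solid line marks equal scores and the dotted lines a 3-fold difference. Of the pairs, 66 lie outside the dotted lines, 35 above and 31 below.

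Neighbouring regions of the arm had weakly similar strength. Spearman's rho between the mean score percentile of a region and that of the next one was 0.18 over 3254 neighbours. The other first stretches had 0.12 to 0.22, and the arm came seventh of 25.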

How the data were processed

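5hmC-bearing DNA from heart pools was tagged with a modified glucose, biotinylated by click chemistry, pulled down with streptavidin beads and put through 12 PCR cycles, per the labels' protocols. About 30M reads per library were aimed for, per the labels; read totals and the depth behind a peak are unknown. Reads were aligned with BWA, and the build was danRer7, per the submitters' processing notes. Peak names carry the name MACS; which version and settings were used, and whether the input served as control, is not known here. Each capture has its own list, and the score of each peak is the authors' own deposited value, 50.0 at the lowest, on a scale that is not stated.

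Intervals were compared with Python 3.11.15, numpy 2.4.6, pandas 2.3.3 and scipy 1.17.1; figures used matplotlib 3.10.9. Regions and windows were counted by midpoint. Coordinates count from 1. The interval functions were tested on simulated data. The members, limits and rules for named regions (the 10 strongest, 5 widest, 5 longest chains, 5 longest gaps, 5 densest and 5 sparsest windows, the 3 strongest unshared peaks of each list, and the 3 regions on each side of the limit) were chosen with earlier results of these data known. No danRer7 sequence or gene annotation was used here, so no region is assigned to a gene and no sequence is shown. Alternatives covered the score threshold, merging of peaks within 500 bp, the overlap, list length, the limit, linking distance, window size, covered bases and each capture alone.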

Additional observations from a re-analysis of the deposited data

How the results depend on the processing

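Of 52 values recomputed under an alternative, 31 moved from the reported one and 21 were near it. A direction was defined only for the ratios of density, decline, score and width, and none of these changed direction. Near means within 1.5 times for the number of chains and otherwise within 1 SD, between the captures where each gives a value and else between the other stretches, so small shifts count as moved. The arm's density over the median stretch, 1.43, became 1.55 from peaks above the median score, 1.39 with peaks within 500 bp merged, 1.54 and 1.60 with limits at 26 and 24 Mb, and 1.37 to 1.39 with either capture alone; the arm came first of 25 in each of these. The last 7 Mb over the first 21 Mb, 0.542, became 0.443, 0.577, 0.570 to 0.573 with either capture alone and 0.457 by covered bases, and the last 4 Mb over the first 24 Mb was 0.378. Above the median score, the score ratio to other chromosomes went to 1.03 in place of 1.07 (1.05 to 1.10 with either capture alone), the width ratio to 0.974 in place of 0.988, and shared percentages to 77.2 and 73.6. Requiring 50% of both peaks gave 75.8 and 75.9. The 27 chains became 9 above the median score, 3 when linked at 2 kb and 62 at 10 kb. The percentage of regions in them, 23.6, became 9.16 above the median score, 20.4 after merging, 18.2 with 50% overlap, 24.3 and 25.1 with limits at 26 and 24 Mb, 1.32 and 55.2 when linked at 2 and 10 kb, and 25.98 to 26.5 with either capture alone. By this percentage the arm took places 5, 2 and 3 of 25 above the median score, after merging and when linked at 2 kb, and place 1 under the other settings ranked. In windows of 2 Mb the rank correlation of the peak numbers of the captures was 0.937. The causes were not tested. Sharing could not be had from 1 capture. No paired analysis was possible because the inputs, which carry the same replicate numbers, were not analysed here. Read depth is unknown, so the trough and other places with few peaks may still hold 5hmC that was not called. Assembly gaps and how well reads can be aligned there were not examined either.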

Other observations

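Peaks of the arm found in 1 capture alone were mostly weak, with median scores of 68.2 in capture 1 and 70.9 in capture 2. The strongest of capture 1 was 16498021 to 16500200, 2180 bp wide, with a score of 269.2 at the 89.0 percentile of its list. It was followed by 2644614 to 2646116 with 215.3, which lies within the second longest chain of the arm, and 12921152 to 12922123 with 207.6. In capture 2 the strongest were 19287167 to 19288281 with 260.4, 12153868 to 12154978 with 254.6 and 14808014 to 14808997 with 248.6. None of these 6 reached the top score decile.

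Peaks were divided differently by the captures at some places. On the arm 88 peaks of capture 1 met 2 or more of capture 2, and 120 peaks of capture 2 met 2 or more of capture 1. The other 24 first stretches, each with fewer peaks, had 27 to 84 and 56 to 132. The arm took places 1 and 6 of 25 by these counts, but it also had the most peaks, so the places do not rank shares. Chromosome 23, with the highest counts of the others, had 84 of 3531 peaks in capture 1 and 132 of 3570 in capture 2. Both were larger shares than the arm's 88 of 4169 and 120 of 4161. Shares in the other stretches were not ranked. Of the 3255 consensus regions, 174 consisted of more than 2 peaks and 3081 of 1 peak in each capture. The whole series had 104435 one-to-one pairs and 110315 consensus regions, so the arm's share was close to that of the series. The median peak width was larger in capture 2 in 27 of 28 windows, and the median score in 23 of 28. Such an offset between the lists was not particular to the arm. On the other 24 chromosomes the median width was 1170 bp in capture 1 and 1236 bp in capture 2, and the median score 103.7 and 108.1.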
